A study of Mus musculus with 8 samples.

Results

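The genes of the cartilage collagens, which are collagen types II, IX, X, XI and XXVII, were followed through RNA-Seq of cortical bone. They are Col2a1, Col9a1, Col9a2, Col9a3, Col10a1, Col11a1, Col11a2 and Col27a1, that is 8 of the 19201 genes with counts, and they were chosen by the collagen type they encode, with earlier results of these data known. Ratios between their chains in each library were included. RNA came from 4 samples of Prx1Cre; Piezo1fl/fl mice (Piezo1-deficient below) and 4 samples of WT mice, all C57BL/6J and 6 weeks old, with replicates numbered 1, 3, 4 and 5 in each genotype. Both Piezo1 alleles carry loxP sites in the first group, and the Prx1 promoter drives Cre in limb mesenchyme, the source of both the chondrocytes and the osteoblasts of limb bones. The comparison asks which transcripts of bone differ when this mechanically gated ion channel is removed from the limb skeleton. The bones were ground whole, so each library mixes bone cells with marrow cells, vessels and any cartilage, muscle or tendon that stayed attached. The labels do not say that each sample is a separate animal and give no sex, so p-values measure the spread between these samples, which may be technical. In such bulk RNA, fewer cells of a type and less RNA per cell cannot be told apart.

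Collagens are trimers of chains, and the genes followed here divide the work of building the cartilage fibril. Type II, a homotrimer of the Col2a1 chain, forms the bulk of the fibril, type XI forms its core and limits its width, and type IX, which joins the products of Col9a1, Col9a2 and Col9a3, decorates its surface. Type X is a short-chain, network-forming collagen made by hypertrophic chondrocytes, the enlarged cells at the lower end of the growth plate, and type XXVII is a fibrillar collagen of the growth plate. Bone itself is built mainly on type I collagen, and its cells also make chains of types V and XI, which can assemble together.

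The libraries held 12090403 to 13841709 counts in the Piezo1-deficient samples and 11963536 to 14536106 in WT. Levels are given as CPM, counts per 1000000 of the library, after TMM scaling, an adjustment for library composition, and genotypes were compared with the quasi-likelihood test of edgeR, a call being a Benjamini-Hochberg adjusted p under 0.05 over 15318 tested genes. Piezo1 averaged 138 ± 6.37 CPM in the Piezo1-deficient libraries and 205 ± 9.94 CPM in WT (SD, n = 4 each), a log2 fold change of -0.57 (SE 0.0644, edgeR adjusted p = 0.0027). Genes called lower made up 0.973% of those tested and genes called higher 2.04%. The median log2 fold change of all tested genes was 0.00498. Markers of osteoblasts and osteocytes were abundant in every library: their summed levels were 16020 to 22440 and 2638 to 4193 CPM in the Piezo1-deficient libraries, against 14240 to 18290 and 2816 to 3085 CPM in WT.

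The cartilage collagens split into a group that fell steeply and a group that did not. All 8 genes passed the filter on low counts. Col2a1, Col10a1 and the 3 genes of type IX were called lower, at 5.76% to 11.5% of their WT means, which is 5 of 8 members beside 0.973% of all genes. These 5 genes also had no overlap, their highest Piezo1-deficient library being below their lowest WT library, an arrangement found in 5.27% of all genes. Neither type XI gene passed the test, and Col27a1, at a log2 fold change of -0.61, did not pass either. No member was called higher, beside 2.04% of all genes. At an unadjusted p under 0.05 edgeR gave 1 member higher, Col11a1, and the Wald test of DESeq2 called none higher after adjustment. No share of all genes was taken at the unadjusted threshold. No member had every Piezo1-deficient library above every WT library, beside 6.65% of all genes.

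**Figure D1:**
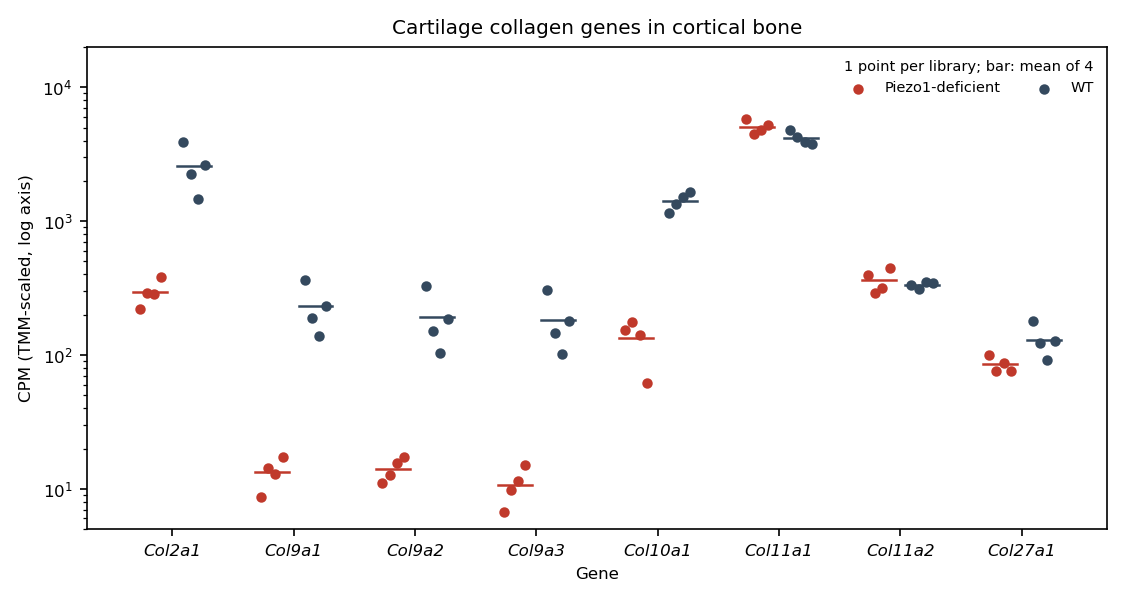
CPM of the 8 genes on a log axis, 1 point per library, with a bar at the mean of the 4 libraries of each genotype, Piezo1-deficient left and WT right. Col2a1, the 3 type IX genes and Col10a1 are separated by genotype (Col9a1 at 8.71 to 17.4 CPM in the Piezo1-deficient libraries and 138 to 366 CPM in WT), while the points of Col11a1, Col11a2 and Col27a1 overlap.

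The sequence just upstream of the gene is shown for a fibril-surface chain that fell (Col9a2), for the hypertrophic collagen that fell (Col10a1) and for the type XI chain that stayed high (Col11a1), so that the letters behind the motif counts can be read. They are RefSeq promoters on GRCm38.p6, all on the plus strand, at chr4:121039316-121039565 for Col9a2, chr10:34389731-34389980 for Col10a1 and chr3:114030290-114030478 for Col11a1. Each is written 5′ to 3′ and ends at the base before the annotated gene, and capitals mark motif matches.
Col9a2: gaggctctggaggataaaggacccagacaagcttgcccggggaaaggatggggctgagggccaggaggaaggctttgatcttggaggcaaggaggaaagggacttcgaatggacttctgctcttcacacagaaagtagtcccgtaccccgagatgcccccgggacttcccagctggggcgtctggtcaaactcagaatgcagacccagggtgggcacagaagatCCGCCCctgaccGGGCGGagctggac
Col10a1: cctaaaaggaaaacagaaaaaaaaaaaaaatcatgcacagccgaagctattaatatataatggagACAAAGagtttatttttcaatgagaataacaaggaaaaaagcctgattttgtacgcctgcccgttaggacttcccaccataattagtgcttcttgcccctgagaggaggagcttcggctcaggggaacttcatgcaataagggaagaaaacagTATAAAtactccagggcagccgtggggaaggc
Col11a1: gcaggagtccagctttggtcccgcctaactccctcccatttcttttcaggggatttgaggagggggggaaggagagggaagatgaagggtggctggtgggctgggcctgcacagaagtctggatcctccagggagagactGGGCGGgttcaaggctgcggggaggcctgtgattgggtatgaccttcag
The search covered the 250 bases before each RefSeq start, on both strands, in 32851 promoters of 27025 genes. The letters GGAATG, read by TEAD factors, were held by 12.6% of promoters. Either spelling of the SOX motif, ACAATG in the first and ACAAAG in the second, was held by 25.2%. The RUNX motif, spelled TGTGGT in the first form and TGCGGT in the second, was held by 18.6%. The TATA box, searched as TATAAA, was held by 12.4% and the GC box, searched as GGGCGG, by 32.7%, and no motif contains another. Col9a2 had 2 GC boxes, of which 1 reads CCGCCC because it lies on the other strand. Col10a1 had TATAAA 32 bases and ACAAAG 185 bases before its start. Col11a1 had 2 GC boxes, 1 of them inside the gene's first bases and not printed. Col11a2 held TATAAA and 2 GC boxes, Col27a1 held 1 GC box, and the window of Col9a1 held none of these letters. None of the 6 members matched in the table, which has no entry for Col2a1 or Col9a3, held the TEAD or RUNX letters. These matches are a description of the letters in this window and not of factor binding.

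Type II collagen, the main fibril of cartilage, is encoded by Col2a1 (chr15:97975602-98004724, minus strand, GRCm38.p6). Col2a1 had 220, 289, 286 and 382 CPM in Piezo1-deficient replicates 1, 3, 4 and 5, against 3917, 2243, 1455 and 2631 CPM in WT replicates 1, 3, 4 and 5. The highest Piezo1-deficient library was far below the lowest WT library. The means were 294 ± 66.7 CPM in Piezo1-deficient bone and 2562 ± 1027 CPM in WT (SD, n = 4 each), a log2 fold change of -3.12 (SE 0.281, edgeR adjusted p = 0.000403; exact permutation p = 0.0286, the smallest that 70 arrangements can give). The raw counts behind these values were 2598 to 4392 in the Piezo1-deficient libraries and 22462 to 49967 in WT, so counting error was small beside the spread between libraries.

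Type IX collagen, which sits on the surface of the type II fibril, needs the products of 3 genes on 3 chromosomes, and all of them fell. Col9a1 (chr1:24177589-24252738, plus strand), whose longer protein form carries a globular N-terminal domain in cartilage, had 8.71, 14.4, 12.9 and 17.4 CPM in Piezo1-deficient replicates 1, 3, 4 and 5, against 366, 190, 138 and 233 CPM in WT. Its Piezo1-deficient mean was 5.76% of the WT mean, the lowest share among the 8 genes. The log2 fold change was -4.12 (SE 0.31, edgeR adjusted p = 0.000176; exact permutation p = 0.0286).

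Col9a2 (chr4:121039566-121055325, plus strand), which encodes the chain to which a glycosaminoglycan can be attached, had 11.1, 12.7, 15.5 and 17.2 CPM in the Piezo1-deficient libraries, against 329, 150, 103 and 185 CPM in WT. Every Piezo1-deficient library was below every WT library. Its log2 fold change was -3.76 (SE 0.332, edgeR adjusted p = 0.000392; exact permutation p = 0.0286), and its Piezo1-deficient mean was 7.36% of WT. Col9a3 (chr2:180598102-180622192, plus strand), the last chain of the trimer, had 6.76, 9.74, 11.4 and 15.1 CPM in Piezo1-deficient bone, against 305, 146, 102 and 180 CPM in WT. The genotypes again did not overlap, and the log2 fold change was -4.09 (SE 0.35, edgeR adjusted p = 0.000392; exact permutation p = 0.0286). The lowest count of any member in any library was that of Col9a3 in Piezo1-deficient replicate 1, at 80 reads. In the exons of Col9a3, 234 bp (6.07%) overlap those of Tcfl5 on the opposite strand, and strand use in counting is not given in the sources used here. Tcfl5 itself was at 1.39 to 5.41 CPM in Piezo1-deficient libraries and 1.24 to 2.67 CPM in WT.

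Type X collagen marks the hypertrophic zone, where cartilage is replaced by bone. Col10a1 (chr10:34389981-34397085, plus strand) had 154, 177, 141 and 61.6 CPM in Piezo1-deficient replicates 1, 3, 4 and 5, against 1157, 1352, 1507 and 1655 CPM in WT. Piezo1-deficient replicate 5 was the lowest, and the genotypes were far apart without it too. The means were 133 ± 50.1 CPM in Piezo1-deficient bone and 1418 ± 213 CPM in WT (SD, n = 4 each), a log2 fold change of -3.41 (SE 0.28, edgeR adjusted p = 0.000307; exact permutation p = 0.0286). Without replicate 5 of the Piezo1-deficient group the log2 fold change was -3.18. An 18 bp stretch of its exons overlaps Nt5dc1 on the opposite strand.

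Type XI collagen, the core of the fibril, showed no such fall. Col11a1 (chr3:114030479-114220756, plus strand) had 5815, 4489, 4789 and 5216 CPM in Piezo1-deficient replicates 1, 3, 4 and 5, against 4831, 4221, 3927 and 3798 CPM in WT. The genotypes overlapped, since WT replicate 1 exceeded 2 of the Piezo1-deficient libraries. The means were 5077 ± 575 CPM in Piezo1-deficient bone and 4194 ± 460 CPM in WT (SD, n = 4 each), and the log2 fold change of 0.28 (SE 0.109) did not pass (edgeR adjusted p = 0.205; exact permutation p = 0.0857). Col11a2 (chr17:34038919-34066684, plus strand), the other type XI chain with a gene of its own, had 398, 293, 317 and 443 CPM in Piezo1-deficient bone, against 333, 313, 349 and 347 CPM in WT. The Piezo1-deficient libraries lay on both sides of the WT range. Its log2 fold change was 0.11 (SE 0.121, edgeR adjusted p = 0.674; exact permutation p = 0.486), and without Piezo1-deficient replicate 5 it was -0.0046.

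Type XXVII collagen forms thin fibrils and is needed for growth plate order in mice. Col27a1 (chr4:63214009-63334991, plus strand) had 101, 76.3, 87.2 and 76.3 CPM in Piezo1-deficient replicates 1, 3, 4 and 5, against 180, 122, 91.1 and 128 CPM in WT. Piezo1-deficient replicate 1 exceeded WT replicate 4, and the other libraries were separated by genotype. The means were 85.1 ± 11.5 CPM in Piezo1-deficient bone and 130 ± 37.1 CPM in WT (SD, n = 4 each), a log2 fold change of -0.61 (SE 0.178) that did not pass in the main test (edgeR adjusted p = 0.0949; exact permutation p = 0.0571). It passed with the Wald test of DESeq2 (adjusted p = 0.0164), with the replicate number as a block in edgeR (adjusted p = 0.0306) and without Piezo1-deficient replicate 1 (edgeR adjusted p = 0.0473). Without WT replicate 1 its log2 fold change was -0.42.

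Per kilobase of mRNA, which allows levels of different genes to be set side by side, the order of the genes differed between the genotypes. In Piezo1-deficient bone Col11a1 stood alone at 662 ± 75.02 CPM per kb (SD, n = 4). Col11a2 at 61.9 ± 11.9, Col2a1 at 57.6 ± 13.1 and Col10a1 at 42.6 ± 16.01 CPM per kb followed, and neighbours in that order overlapped between libraries. Col27a1 was at 11.2 ± 1.52 CPM per kb, below all of these and above the type IX genes at 3.48 to 4.83 CPM per kb, whose ranges overlapped. In WT bone Col11a1 at 547 ± 59.99, Col2a1 at 502 ± 201 and Col10a1 at 453 ± 68.2 CPM per kb came first, and each overlapped the next of these 3 (SD, n = 4). Col2a1 exceeded Col11a1 per kb in WT replicates 1 and 5, where Col11a1 to Col2a1 was 0.821 and 0.961 per kb. They were followed, without overlap, by Col9a2 at 65.6 ± 33.3, Col9a3 at 64.2 ± 30.6, Col9a1 at 60.4 ± 25.5 and Col11a2 at 57.2 ± 2.88 CPM per kb, which overlapped, and by Col27a1 at 17.1 ± 4.87 CPM per kb, below every one of them.

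Summed over the 8 genes, the cartilage collagens came to 6713, 5360, 5660 and 6228 CPM in Piezo1-deficient replicates 1, 3, 4 and 5, against 11420, 8737, 7672 and 9157 CPM in WT. The Piezo1-deficient sum was 64.8% of that in WT, with no overlap (exact permutation p = 0.0286, n = 4 each). The sum of types II, IX and X was 466 ± 46.1 CPM in Piezo1-deficient bone and 4586 ± 1180 CPM in WT (SD, n = 4 each), or 10.2% of WT. Among the counts of all collagen genes, which are these 8 and 34 others, the cartilage collagens took 1.98% to 2.30% in the Piezo1-deficient libraries and 3.93% to 4.75% in WT (exact permutation p = 0.0286).

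The make-up of that sum differed in every library. Type XI took 92.5%, 89.2%, 90.2% and 90.9% of the counts of the 8 genes in Piezo1-deficient replicates 1, 3, 4 and 5, against 45.2%, 51.9%, 55.7% and 45.3% in WT. Type II took 3.27% to 6.13% in the Piezo1-deficient libraries and 19.0% to 34.3% in WT. Type IX took 0.395% to 0.798% in the Piezo1-deficient libraries and 4.46% to 8.75% in WT. Type X took 0.990% to 3.30% of the counts in Piezo1-deficient bone and 10.1% to 19.7% in WT. None of these 4 shares overlapped between the genotypes. The share of type XXVII in the counts overlapped, with 1.23% to 1.54% in Piezo1-deficient bone and 1.19% to 1.58% in WT. Per kb of mRNA its share did not overlap, with 1.15% to 1.43% in Piezo1-deficient bone and 0.821% to 1.10% in WT, and the other shares kept their direction on that scale. A share rises when other parts of the sum fall, and the mean level of Col27a1 itself was 65.3% of WT. The widest 95% Wilson interval of any of these shares spanned 0.57 percentage points, which covers counting error only.

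**Figure D2:**
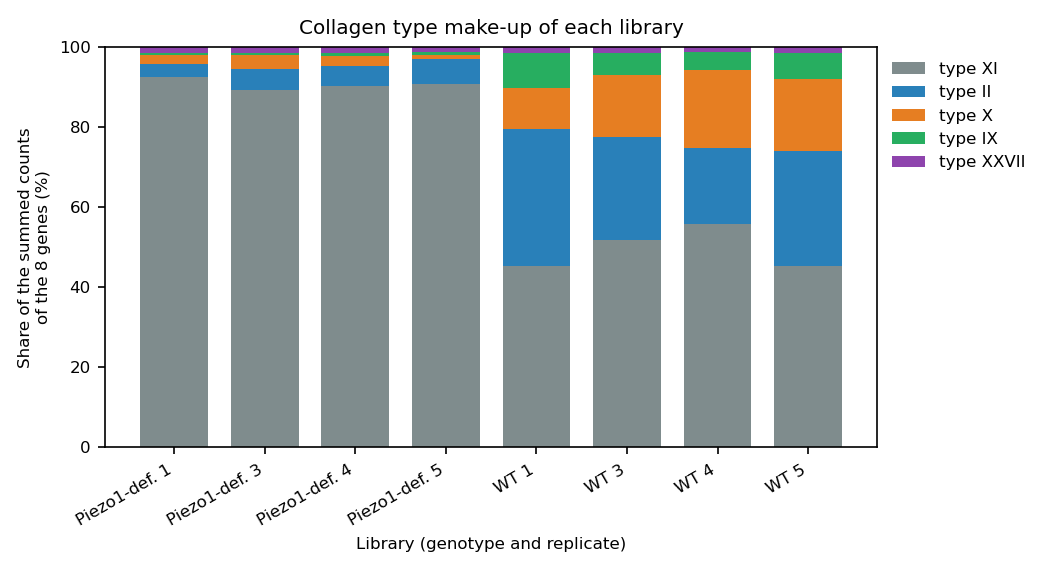
Stacked bars give the share (%) of types XI, II, X, IX and XXVII in the summed counts of the 8 genes, 1 bar per library, with the 4 Piezo1-deficient libraries left of the 4 WT libraries. Type XI fills 89.2% to 92.5% of each Piezo1-deficient bar and 45.2% to 55.7% of each WT bar.

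Chain ratios were taken within each library, so they do not depend on how libraries were scaled, and each is a ratio of counts with 0.5 added. Of 20 ratios, 12 had genotypes without overlap (exact permutation p = 0.0286 and adjusted p = 0.0477 over the 20, n = 4 each), 9 lower and 3 higher in Piezo1-deficient bone. The remaining 8 overlapped. The ratios share genes, so the 12 are not separate results. Those of Col11a1, Col11a2 and Col27a1 to Col2a1 and of Col2a1 to Col1a1 all carry the fall of Col2a1. All 12 are tied at the smallest p that 70 arrangements can give. Their common adjusted p therefore depends on how many ratios are tied there, including those that carry the same fall. It is not separate evidence for the ratios with small differences. Among single genes, 5.27% had every Piezo1-deficient library below every WT library and 6.65% had every one above. No such share was taken over ratios of other genes. In 4 of the ratios a gene of a type that fell was set against Col2a1. Col9a1 to Col2a1 was 0.0398, 0.0499, 0.0452 and 0.0457 in Piezo1-deficient replicates 1, 3, 4 and 5, against 0.0934, 0.0845, 0.0948 and 0.0886 in WT. The ratio varied little within a genotype and was lower in Piezo1-deficient bone, at 0.499 times that in WT. Col9a3 to Col2a1 was also lower in Piezo1-deficient bone, with a geometric mean of 0.0359 there and 0.0701 in WT (log2 difference -0.97). Col9a2 to Col2a1 moved least of the 3 type IX chains, with geometric means of 0.0484 in Piezo1-deficient bone and 0.0728 in WT (log2 difference -0.59). All 3 type IX genes fell by more than Col2a1 in the same libraries.

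Within type IX, Col9a3 fell further than Col9a2, while the other chain ratios overlapped between the genotypes. Col9a3 to Col9a2 was 0.612, 0.768, 0.732 and 0.879 in Piezo1-deficient replicates 1, 3, 4 and 5, against 0.926, 0.972, 0.987 and 0.968 in WT. The genotypes did not overlap, with a log2 difference of -0.38 (exact permutation p = 0.0286, n = 4 each). Col9a1 to Col9a2 had geometric means of 0.930 in Piezo1-deficient bone and 1.24 in WT, and 1 library crossed (log2 difference -0.41; exact permutation p = 0.0571). Col9a1 to Col9a3 had geometric means of 1.25 in Piezo1-deficient bone and 1.29 in WT (log2 difference -0.04; exact permutation p = 0.714). Per kb of mRNA, Col9a2 made up 44.9%, 37.7%, 42.0% and 37.4% of type IX in Piezo1-deficient replicates 1, 3, 4 and 5, against 35.7%, 33.8%, 33.0% and 33.9% in WT. The WT libraries thus held nearly equal levels of the 3 chains, and each Piezo1-deficient library held a larger part of Col9a2. These parts rest on 80 to 212 reads per gene in the Piezo1-deficient libraries, against 1569 to 4667 in WT, so counting error weighs more in the former.

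Type X against type II varied between libraries of the same genotype. Col10a1 to Col2a1 was 0.703, 0.612, 0.492 and 0.162 in Piezo1-deficient replicates 1, 3, 4 and 5, against 0.295, 0.603, 1.04 and 0.629 in WT. The ranges overlapped widely (log2 difference -0.44; exact permutation p = 0.543), and without Piezo1-deficient replicate 5 the log2 difference was 0.03.

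Type XI against type II differed between the genotypes in bulk RNA, which does not show the make-up of a fibril. Col11a1 to Col2a1 was 26.5, 15.5, 16.7 and 13.7 in Piezo1-deficient replicates 1, 3, 4 and 5, against 1.23, 1.88, 2.70 and 1.44 in WT. The ratio was higher in every Piezo1-deficient library, by a log2 difference of 3.34 (exact permutation p = 0.0286). Col11a2 to Col2a1 had geometric means of 1.24 in Piezo1-deficient bone and 0.139 in WT (log2 difference 3.15), and Col27a1 to Col2a1 had 0.293 in Piezo1-deficient bone and 0.0526 in WT (log2 difference 2.48). Between the type XI chains, Col11a1 to Col11a2 was 14.6, 15.3, 15.1 and 11.8 in Piezo1-deficient libraries, against 14.5, 13.5, 11.3 and 10.9 in WT. These values overlapped (log2 difference 0.18; exact permutation p = 0.171).

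Against type I collagen, the main collagen of bone, Col11a1 kept a narrow ratio. Col11a1 to Col1a1 was 0.0363, 0.0401, 0.0412 and 0.0385 in Piezo1-deficient replicates 1, 3, 4 and 5, against 0.0448, 0.0425, 0.0448 and 0.0431 in WT. The ratio was lower in each Piezo1-deficient library, by a log2 difference of -0.17 (exact permutation p = 0.0286). Col1a1 itself averaged 130990 ± 22050 CPM in Piezo1-deficient bone and 95776 ± 9737 CPM in WT (SD, n = 4 each) and did not pass (log2 fold change 0.45, edgeR adjusted p = 0.134). Every Piezo1-deficient library was above every WT library for Col1a1 (exact permutation p = 0.0286), an arrangement found in 6.65% of all genes. Lower ratios to Col1a1 therefore also carry its higher level. Col11a1 to Col5a2, a type V chain that can share trimers with it, had geometric means of 0.892 in Piezo1-deficient bone and 0.931 in WT, with overlap (log2 difference -0.06; exact permutation p = 0.171). Col11a2 to Col1a1 overlapped as well (log2 difference -0.35; exact permutation p = 0.0857).

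The remaining ratios to Col1a1 were lower in Piezo1-deficient bone. Col2a1 to Col1a1 had geometric means of 0.00223 in Piezo1-deficient bone and 0.0252 in WT (log2 difference -3.50). Col27a1 to Col1a1 had 0.000652 in Piezo1-deficient bone and 0.00133 in WT (log2 difference -1.02). The ratio of the type I chains to each other, Col1a2 to Col1a1, differed by a log2 difference of -0.07 without overlap, with geometric means of 0.921 in Piezo1-deficient bone and 0.967 in WT.

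Ratios to cartilage genes that are not collagens were taken for types II, IX and X. Col2a1 to Acan, which encodes aggrecan, the large proteoglycan of cartilage, was 3.61, 5.10, 4.63 and 5.58 in Piezo1-deficient replicates 1, 3, 4 and 5, against 5.39, 4.93, 4.22 and 4.84 in WT. The ranges overlapped and the log2 difference was -0.05 (exact permutation p = 0.771), with a direction that changed when Piezo1-deficient replicate 1 was left out (0.08). Col9a1 to Acan was 0.144, 0.255, 0.209 and 0.255 in Piezo1-deficient libraries, against 0.504, 0.417, 0.400 and 0.428 in WT, without overlap (log2 difference -1.05; exact permutation p = 0.0286). Col10a1 to Ihh, which encodes the signal sent by prehypertrophic and early hypertrophic chondrocytes, had geometric means of 71.7 in Piezo1-deficient bone and 78.8 in WT, with overlap (log2 difference -0.14; exact permutation p = 0.80). Ihh rests on 15 to 36 reads in each Piezo1-deficient library and 214 to 280 in WT.

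**Figure D3:**
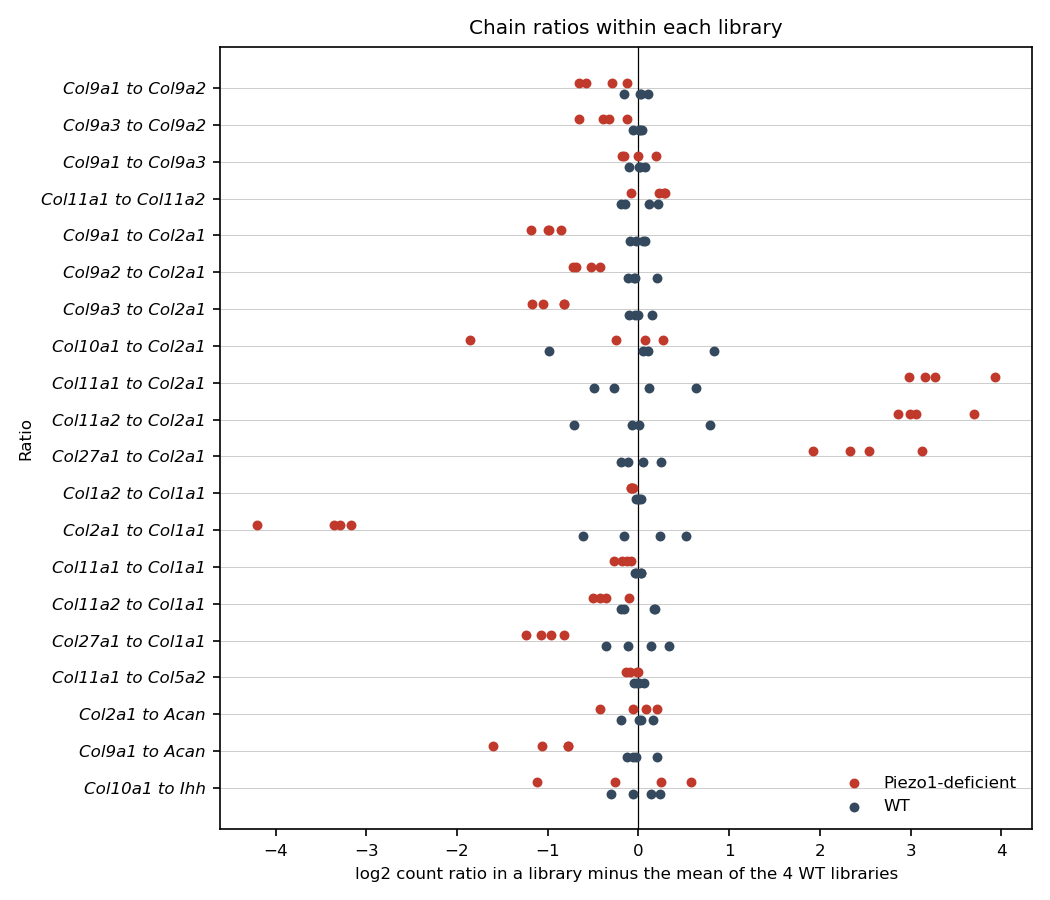
Each row is 1 of the 20 ratios, each point is a library, and the x axis gives its log2 count ratio minus the mean of the 4 WT libraries, with Piezo1-deficient points above WT points in a row. Ratios of Col11a1, Col11a2 and Col27a1 to Col2a1 stand far to the right in Piezo1-deficient bone, at mean log2 differences of 3.34, 3.15 and 2.48, while Col2a1 to Acan overlaps.

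Libraries of a genotype also differed among themselves, and the genes of types II and IX did so together. In WT, the highest library of Col2a1, Col9a1, Col9a2 and Col9a3 was replicate 1 and the lowest was replicate 4, with a highest-to-lowest ratio of 2.65 to 3.19. In Piezo1-deficient bone the highest library of these 4 genes was replicate 5 and the lowest was replicate 1, with a ratio of 1.55 to 2.24. Col27a1 shared the WT order, at 1.42 of the geometric mean in WT replicate 1 and 0.719 in WT replicate 4. In Piezo1-deficient bone, however, Col27a1 was highest in replicate 1. Col10a1 had another order. It was lowest in WT replicate 1 and highest in WT replicate 5, with a ratio of 1.43, and in Piezo1-deficient replicate 5 it was at 0.497 of the geometric mean of its genotype while Col2a1 was at 1.32. Col11a1 varied by a ratio of 1.3 in Piezo1-deficient libraries and 1.27 in WT.

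**Figure D4:**
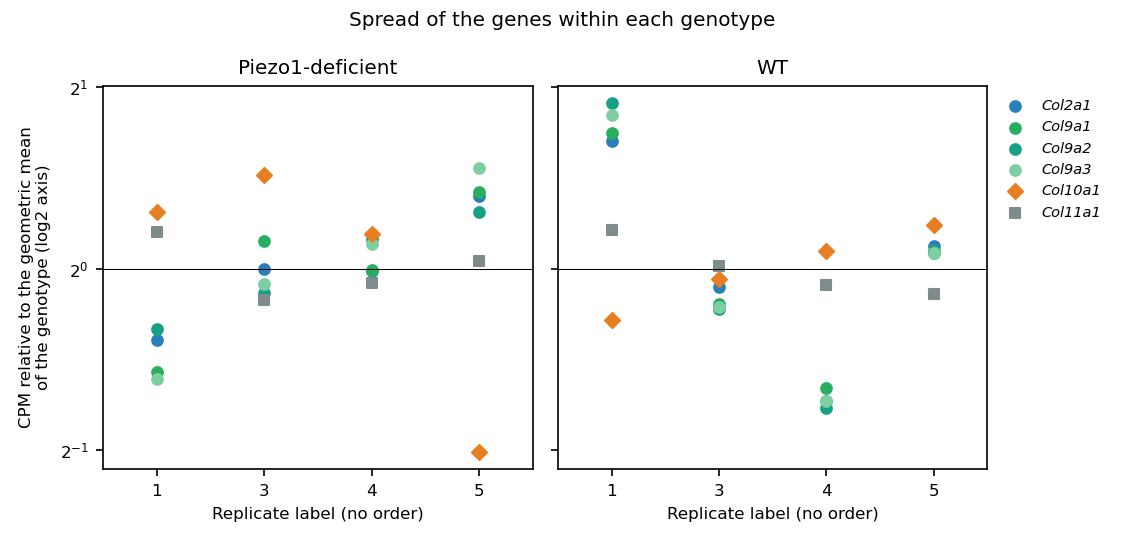
CPM of 6 of the genes in each library, divided by the geometric mean of the gene in its genotype (log2 axis), with Piezo1-deficient libraries on the left and WT on the right; replicate labels carry no order. Col2a1 and the type IX genes rise to 1.63 to 1.88 in WT replicate 1, where Col10a1 is at 0.823, and Col10a1 is at 0.497 in Piezo1-deficient replicate 5.

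Chondrocyte markers fell with these genes, while markers of other cell types went in different directions or overlapped. The counts of calls below stand beside 0.973% of all genes called lower and 2.04% called higher. Of 15 chondrocyte markers that are not collagens, 12 were called lower, and their summed level was 201, 208, 231 and 254 CPM in Piezo1-deficient replicates 1, 3, 4 and 5, against 1846, 1007, 800 and 1311 CPM in WT. The order of the WT libraries in that sum was the same as for Col2a1, Col9a1, Col9a2, Col9a3 and Col27a1. A list of hypertrophic markers had 1 of 5 called lower, Ihh, and summed to 950 to 1326 CPM in Piezo1-deficient bone and 818 to 1130 CPM in WT. Ihh averaged 1.76 CPM in Piezo1-deficient bone and 17.95 CPM in WT, so that sum rests on the other genes of the list. Which cells the transcripts of those genes came from was not tested. The sum alone therefore does not show whether hypertrophic chondrocytes differed between the genotypes. Skeletal muscle markers were higher in 12 of 12, at 503 to 4767 CPM in Piezo1-deficient libraries and 13.5 to 173 CPM in WT, and 4 of 8 tendon and periosteal markers were higher, at 1549 to 2068 CPM in Piezo1-deficient libraries and 762 to 1334 CPM in WT. Osteoclast markers summed to 5022 to 7377 CPM in Piezo1-deficient libraries and 8366 to 9584 CPM in WT, with 3 of 8 called lower. At an unadjusted p under 0.05, 7 of these 8 were lower in edgeR, and DESeq2 called 6 lower. B lineage markers summed to 125 to 304 CPM in Piezo1-deficient libraries and 346 to 433 CPM in WT. Of these 6 markers edgeR called 0, while 6 were lower at an unadjusted p under 0.05 and DESeq2 called 5 lower, beside 360 of all genes. No share of all genes was taken at the unadjusted threshold, for this list or the other marker lists. Of 8 osteoblast markers 2 were called higher, Bglap (log2 fold change 0.58, edgeR adjusted p = 0.0246) and its close copy Bglap2 (0.56, edgeR adjusted p = 0.0364), which can share reads. Both calls were lost without Piezo1-deficient replicate 4 or 5 or WT replicate 3, 4 or 5, and that of Bglap2 also without Piezo1-deficient replicate 3 or WT replicate 1. The sums of erythroid, neutrophil, endothelial and adipocyte markers overlapped between the genotypes. Of 4 adipocyte markers tested edgeR called 0, while 3 were higher at an unadjusted p under 0.05. DESeq2 called 2 of them higher, beside 594 of all genes. No tested marker was at 0 in all libraries, and the part of cartilage or muscle content in the collagen differences was not tested.

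Genes for proteins that share the matrix with these collagens were often lower too. Of 19 cartilage matrix partners tested, 10 were called lower and 2 higher, with a median log2 fold change of -2.51. Over all genes 0.973% were called lower and 2.04% higher, with a median of 0.00498. Acan averaged 61.9 ± 4.89 CPM in Piezo1-deficient bone and 517 ± 162 CPM in WT (SD, n = 4 each; log2 fold change -3.06, SE 0.199, edgeR adjusted p = 0.000101). Hapln1, the link protein that ties aggrecan to hyaluronan, averaged 13.4 ± 2.19 CPM in Piezo1-deficient bone and 232 ± 99.1 CPM in WT (SD, n = 4 each; log2 fold change -4.11, edgeR adjusted p = 0.00017). Comp, a pentameric protein that binds types II and IX, averaged 25.9 ± 13.1 CPM in Piezo1-deficient bone and 183 ± 69.6 CPM in WT (SD, n = 4 each; log2 fold change -2.82, edgeR adjusted p = 0.00481). This list shares 11 of its tested genes with the chondrocyte markers above. The genes that rose were Matn2 and Cilp, named after their values were seen. The call of Matn2 was lost when any of 6 libraries was left out and that of Cilp without WT replicate 5.

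Among 13 tested regulators of collagen genes, and beside 0.973% of all genes, 1 was lower. This was Sox9, the transcription factor that switches on Col2a1, Col9a1 and Col11a2 in chondrocytes, at 4.62 ± 0.624 CPM in Piezo1-deficient bone and 9.31 ± 2.92 CPM in WT (SD, n = 4 each; log2 fold change -1.01, SE 0.216, edgeR adjusted p = 0.0352). Its call was lost when Piezo1-deficient replicate 3, 4 or 5 or WT replicate 3 or 5 was left out, with an adjusted p of up to 0.0999. None was called higher by edgeR (2.04% over all genes), 4 had an unadjusted p under 0.05 in that direction, and DESeq2 called 1 (594 over all genes). No share of all genes was taken at the unadjusted threshold.

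Genes that fold and modify collagen chains, such as hydroxylases and chaperones, gave 1 call higher and none lower of 23, with a median log2 fold change of 0.25. Over all genes 2.04% were called higher and 0.973% lower, with a median of 0.00498. At an unadjusted p under 0.05, 12 of the 23 were higher and 1 lower, and no share of all genes was taken there. DESeq2 called 7 of the 23 higher and none lower, beside 594 higher and 360 lower of all genes. The edgeR call was Fkbp14, a prolyl isomerase of the endoplasmic reticulum (log2 fold change 0.31, edgeR adjusted p = 0.0204), and it was lost without Piezo1-deficient replicate 3 or 4 or WT replicate 3, 4 or 5. Of 13 genes for procollagen processing and crosslinking, 2 were higher and 2 lower. Lox and Loxl2, which encode enzymes that start crosslinks between chains, rose by log2 fold changes of 0.52 (edgeR adjusted p = 0.0164) and 0.89 (edgeR adjusted p = 0.00559), while Loxl4 of the same family fell by 0.77 on the log2 scale (edgeR adjusted p = 0.0027). The call of Lox was lost without WT replicate 3 or 5.

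Of 12 collagen receptor genes, 1 was higher and 2 lower, beside 2.04% and 0.973% of all genes. Ddr2, a receptor kinase for collagens that include types II and X, rose (log2 fold change 0.41, edgeR adjusted p = 0.0111), which was lost without WT replicate 4. Itgb3 and Itga1, integrin subunits, were lower (log2 fold changes -0.43 and -0.43, edgeR adjusted p = 0.0052 and 0.0189), and the call of Itga1 was lost without Piezo1-deficient replicate 4 or WT replicate 3, 4 or 5. Of 12 genes for collagen degradation 1 was lower, Mmp9, a gelatinase of osteoclasts, at 1881 ± 429 CPM in Piezo1-deficient bone and 2998 ± 133 CPM in WT (SD, n = 4 each; edgeR adjusted p = 0.0294). That call was lost without Piezo1-deficient replicate 3 or 4 or WT replicate 3, 4 or 5. None was called higher by edgeR, and DESeq2 called 1 higher and 1 lower. At an unadjusted p under 0.05, 3 were higher and 4 lower in edgeR, and no share of all genes was taken there.

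The other collagens held no gene called lower. Of 29 tested, 4 were called higher and none lower by edgeR, with a median log2 fold change of 0.34. Over all genes 2.04% were called higher and 0.973% lower, with a median of 0.00498. At an unadjusted p under 0.05, 17 of the 29 were higher and none lower, and no share of all genes was taken there. DESeq2 called 8 of the 29 higher and none lower, beside 594 higher and 360 lower of all genes. Col6a2, a chain of the microfibrillar type VI, rose (log2 fold change 0.56, edgeR adjusted p = 0.044), as did Col15a1, of basement membranes (0.58, edgeR adjusted p = 0.0318), and Col8a2, a short-chain collagen of the same network-forming family as type X (1.97, edgeR adjusted p = 0.00506). The other gene called was Col14a1, named after its values were seen. Col6a2 and Col15a1 each lost their call in 5 of 8 omissions of a library (Piezo1-deficient replicate 4 or 5 or WT replicate 3, 4 or 5; adjusted p of up to 0.155 and 0.12), and Col14a1 in 4 (Piezo1-deficient replicate 5 or WT replicate 3, 4 or 5). The number called was 1 when WT replicate 3, 4 or 5 was omitted and 2 when it was Piezo1-deficient replicate 4 or 5. Col8a2 kept its call whichever library was left out.

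Likeness of pattern was measured as the root mean square difference between log2 CPM profiles over the 8 libraries, each centred on its own mean. The candidates were 10983 genes with a mean of at least 5 CPM. Riken clones, predicted genes and similar clone names had been left out, so none of them could be named as nearest. Nearest to Col2a1 were Acan (0.191), Col9a2 (0.30) and Comp (0.313). Nearest to Col9a1 were Col9a3 (0.115), Hapln1 (0.204) and Col9a2 (0.259). Col10a1 had no near neighbour of that kind, with Ihh at 0.502, Acan at 0.657 and Hapln1 at 0.694. Nearest to Col11a1 were P3h1, which encodes a collagen prolyl 3-hydroxylase (0.0269), Rcn3 (0.0352) and Dap (0.0366). Nearest to Col11a2 were Abt1 (0.0708), Rab6b (0.0825) and Cpeb2 (0.0863), and nearest to Col27a1 were P3h2 (0.163), Cdkn1c (0.168) and Urb2 (0.183). The type XI genes were 0.187 apart from each other, while Col2a1 and Col11a1 were 1.71 apart. These distances describe the 8 libraries, which share the difference between genotypes, and have no test.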

How the data were processed

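RNA from ground cortical bone of tibia and femur was sequenced in 4 Piezo1-deficient and 4 WT samples. The authors deposited raw whole-number counts per gene, and their fold change, p-value and FDR columns for the comparison were not used. The paper's methods name TopHat 1.4.1, mm9 and Cufflinks 1.3.0, whereas HISAT2 and GRCm38 stand in the processing notes of the submitters; the counter, annotation and strand setting are not given in the sources used here, so reads of overlapping genes could not be separated. The members and gene lists were chosen with earlier results of these data known.

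Counts were tested with edgeR 4.0.16 (filterByExpr, TMM, quasi-likelihood F test, Benjamini-Hochberg over 15318 genes) in R 4.3.3, after the script was tested on simulated data. TMM factors were 0.888 to 1.07, with a biological coefficient of variation of 13.1%. Each SE is the absolute log2 fold change over the square root of F. Single values and ratios were compared by two-sided exact permutation tests. mRNA lengths are from the longest coding transcript in GENCODE M1, and positions and promoters from RefSeq on GRCm38.p6. The text names the 8 members, the other genes of the ratios, in each gene list the 3 called genes of highest mean CPM, the 3 nearest genes in pattern, and Piezo1. Alternatives were DESeq2 size factors, library sizes without Col1a1, Col1a2 and Sparc, no filter, a stricter filter (mean of 5 CPM or more), DESeq2 1.42.0 with its Wald test, the replicate number as a block, 5 added to counts in ratios, and each library left out.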

Additional observations from a re-analysis of the deposited data

How the results depend on the processing

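The 5 members called lower stayed below the threshold under all alternatives, with an adjusted p of at most 0.00596 for edgeR and DESeq2, and the number of members called lower was 5 or 6. The lone reversal among the 8 members was Col11a2, whose log2 fold change ran from -0.0046 (without Piezo1-deficient replicate 5) to 0.20 when a library was left out. Over all genes, the Wald test of DESeq2 called 360 lower and 594 higher, against 149 and 313 in the edgeR test. Leaving out a library gave 49 to 271 lower and 71 to 415 higher, with the lowest counts without WT replicate 5 and the highest without Piezo1-deficient replicate 1; the cause was not tested. With the replicate number as a block 320 genes were called lower and 506 higher. The numbers share no stated animal or batch, and same-numbered samples had deviations correlated at 0.358, -0.223, 0.186 and -0.00304 for replicates 1, 3, 4 and 5, so the numbers were not taken as pairs. With 5 added to each count the same number of ratios, 12, had no overlap. When a library was left out the number was 12 to 14, highest without Piezo1-deficient replicate 5, and the log2 difference changed sign for Col10a1 to Ihh (0.19 without Piezo1-deficient replicate 5) and Col9a1 to Col9a3 (0.01 without Piezo1-deficient replicate 4), besides Col10a1 to Col2a1 (0.03) and Col2a1 to Acan (0.08), all of which overlapped. Of 196 counts in the gene lists under alternatives, 144 stayed within 1.5 times the main count or stayed at 0 where the main count was 0. Another 34 were smaller and 18 larger. The summed level of the 8 genes was 61.3% to 70.3% of WT when a library was left out. At 4 against 4 the smallest exact p is 0.0286, and at 3 against 4 it is 0.0571, so ratios with a library left out are values and not tests.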
